A study of Mus musculus with 6 samples.

Results

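Ltf, Camp, Ngp, Lcn2, S100a8, S100a9, Mmp8, Mmp9, Retnlg and Chi3l3 are 10 genes that neutrophil precursors switch on late, once the cells leave the promyelocyte stage. They were taken by name, as every probe of the array that is not a control spot and whose gene name is one of these symbols. 9 of the 10 symbols stood on the array as written, and Chi3l3 stood there under its current symbol Chil3, which RefSeq lists with Chi3l3 as a synonym. The 10 genes were read by 12 probes and were 10 of 20778 gene names tested.

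Gene expression had been profiled in LSK cells (lineage marker-negative, Sca1+ and c-Kit+, the bone marrow fraction of haematopoietic stem cells and early progenitors) to ask how loss of Atg5, a gene needed to form autophagosomes, affects these cells around P7. The 3 control samples were Atg5w/w;VaviCre+ and the 3 Atg5f/f;Vav samples were Atg5f/f;VaviCre+, all from C57BL/6 mice aged P6 to P8. Both groups therefore carried Vav-iCre, a Cre recombinase under the Vav promoter, which is active throughout the haematopoietic system. Whether cells of several mice were pooled for a sample is not given in the labels, and p-values measure only the spread between these samples.

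As background, neutrophils fill their granules in the order in which the proteins are made. Primary (azurophilic) granules are filled at the promyelocyte stage with myeloperoxidase and serine proteases, and secondary (specific) and tertiary (gelatinase) granules follow with lactoferrin, cathelicidin, lipocalin and matrix metalloproteinases. C/EBP-epsilon is the transcription factor best known for the switch to secondary granule genes. These proteins are products of maturing neutrophils and not of stem cells, and the lineage antibodies used for mice of this age included Gr-1, which marks granulocytes, but not Mac-1.

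All values are log2 signals relative to the 75th percentile of the same array, so 0 is a spot brighter than 75% of the others and 1 unit is a 2-fold difference. On the 6 arrays, 53.6 to 59.9% of the spots were well above background. A single slide held the arrays, control in its row 1 and Atg5f/f;Vav in its row 2, and an effect of the row cannot be told apart from one of the genotype. The single Atg5 probe lies past the early exon that the floxed allele loses, from base 2251 of the transcript (chromosome 10, 44083997 to 44084056 in mm9), and does not check the deletion. Its log2 signal lay between 0.93 and 1.10 in control and between 1.46 and 1.74 in Atg5f/f;Vav. Kit and Cd34 were well above background on every array (3.50 to 4.12 and 5.69 to 6.57), as was Ly6a, which encodes Sca1 and was higher in Atg5f/f;Vav (1.31 to 1.56 against 2.89 to 3.30; log2 fold change 1.57, limma adjusted p = 0.00623). Kit lay at 3.93 to 4.12 in control and at 3.50 to 3.82 in Atg5f/f;Vav (limma adjusted p = 0.0563). Of 10 genes listed as LSK markers, Ly6a was the 1 higher and 5 were lower. The largest falls were those of Mecom (-1.75), Hlf (-1.65) and Procr (-1.56).

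9 of the 10 late granule genes were lower in LSK cells of Atg5f/f;Vav mice than in those of control mice, by 2.31-fold for Ngp to 4.35-fold for Retnlg. The 10th, Mmp9, was dim and did not pass the test. No late granule gene was higher. Over all gene names tested, 34.1% passed in either direction, 15.3% were lower, and in 26.3% every Atg5f/f;Vav array lay below every control array, which also held for 9 of the 10 late granule genes. The median log2 fold change of the 10 genes was -1.35, beside -0.03 over all gene names tested. Lower values made up 49.7% of the 11024 probes that passed, and 75% when arrays were scaled on the probes detected on every array, a scaling that moved the median of all probes from -0.06 to -0.27 and the late granule median to -1.55, with 9 of 10 still lower. In RNA from a sorted population, fewer cells of a type and less RNA per cell cannot be told apart.

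**Figure D1:**
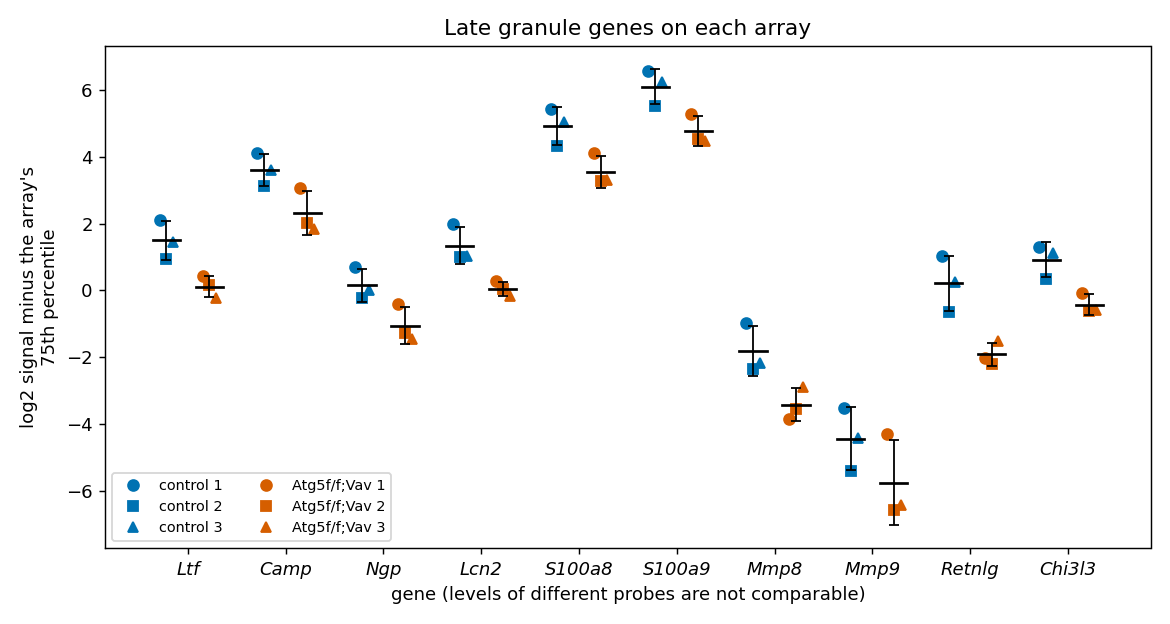
Log2 signal of the 10 late granule genes (y axis, relative to the 75th percentile of each array) on 3 control arrays (blue) and 3 Atg5f/f;Vav arrays (orange), with the symbol shape giving the replicate number and black bars the mean ± SD. The orange points lie below the blue points for every gene but Mmp9.

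Among the proteins of the secondary granules, lactoferrin, the iron-binding protein encoded by Ltf, had signals of 2.10, 0.93 and 1.45 in control and 0.42, 0.15 and -0.23 in Atg5f/f;Vav. All 3 control values lay above all 3 Atg5f/f;Vav values, by at least 0.51. The means were 1.49 ± 0.59 and 0.12 ± 0.33 (SD, n = 3 each), a log2 fold change of -1.38 with an SE of 0.31 (limma adjusted p = 0.0206). Lcn2 encodes lipocalin 2, which binds bacterial siderophores and so withholds iron. Its brighter probe read 1.98, 0.999 and 1.04 in control and 0.27, 0.04 and -0.16 in Atg5f/f;Vav, again with no overlap and a gap of 0.73. The log2 fold change was -1.29 ± 0.28 (SE, limma adjusted p = 0.0192). The second Lcn2 probe, which spans a splice junction, gave -1.34 ± 0.32 (SE, limma adjusted p = 0.0235), so both probes showed the lower level.

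Camp encodes cathelicidin, the precursor of an antimicrobial peptide. It was bright on every array, with 4.10, 3.13 and 3.60 in control and 3.08, 2.02 and 1.85 in Atg5f/f;Vav. The groups came close here, since the lowest control array stood only 0.06 above the highest Atg5f/f;Vav array, and the log2 fold change was -1.29 ± 0.37 (SE, limma adjusted p = 0.0377). Ngp encodes neutrophilic granule protein, a cystatin-related protein of the same granules. Its signals were 0.69, -0.24 and -0.003 in control and -0.41, -1.28 and -1.47 in Atg5f/f;Vav, with a gap of 0.18 between the groups. Its log2 fold change, -1.21 ± 0.34 (SE, limma adjusted p = 0.0354), was the smallest of the 9 that passed. Chi3l3 encodes Ym1, a chitinase-like lectin that immature neutrophils store. It measured 1.31, 0.35 and 1.11 in control and -0.08, -0.63 and -0.60 in Atg5f/f;Vav, a log2 fold change of -1.36 ± 0.28 (SE, limma adjusted p = 0.0179). The near-identical gene Chil4 may share signal with this probe.

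Because 9 of the 10 genes were lower together, the 250 bases before the RefSeq start of the late granule genes were read in the GRCm38.p6 build and searched on both strands for a C/EBP-type motif, TTNNGNAA, and a PU.1-type motif, GAGGAAG. RefSeq promoter windows were at hand for 9 of the 10 genes, and Mmp9 was not analysed here. The C/EBP-type motif was present in 8 of the 9 windows, beside 36.8% of 32851 windows of the same length, and the PU.1-type motif in 3 of 9, beside 10.6%. All 3 windows with the PU.1-type motif, those of Lcn2, S100a8 and Mmp8, also held the C/EBP-type motif, a combination found in 3.75% of all windows. Camp was the gene with neither. The windows of Ltf, Ngp and Camp are shown because these secondary granule genes lie in one stretch of chromosome 9 and hold 2, 3 and 0 C/EBP-type matches, and that of Mmp8, on the same chromosome but far from them, because it holds both motifs. Matches are in capitals, each window runs 5′ to 3′ on the strand of its gene and ends at the base before the start, and a match is a description of letters and not a binding site.
Ltf, chr9:111019042-111019291, plus strand: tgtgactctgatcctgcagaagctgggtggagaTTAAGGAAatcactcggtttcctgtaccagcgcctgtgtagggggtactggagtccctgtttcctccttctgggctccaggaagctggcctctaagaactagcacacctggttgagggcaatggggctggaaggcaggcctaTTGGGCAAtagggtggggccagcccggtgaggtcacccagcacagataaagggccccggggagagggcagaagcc
Ngp, chr9:110419558-110419807, plus strand: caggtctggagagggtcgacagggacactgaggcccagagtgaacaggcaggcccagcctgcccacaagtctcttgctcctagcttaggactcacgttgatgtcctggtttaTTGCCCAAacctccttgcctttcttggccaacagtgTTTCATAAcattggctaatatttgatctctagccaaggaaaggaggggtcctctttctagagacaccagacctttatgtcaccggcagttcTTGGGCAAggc
Camp, chr9:109849457-109849706, minus strand: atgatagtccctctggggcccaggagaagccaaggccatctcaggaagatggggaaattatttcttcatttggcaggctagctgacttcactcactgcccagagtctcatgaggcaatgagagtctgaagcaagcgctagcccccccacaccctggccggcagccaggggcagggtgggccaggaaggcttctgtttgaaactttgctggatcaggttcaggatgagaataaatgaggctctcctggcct
Mmp8, chr9:7558179-7558428, plus strand: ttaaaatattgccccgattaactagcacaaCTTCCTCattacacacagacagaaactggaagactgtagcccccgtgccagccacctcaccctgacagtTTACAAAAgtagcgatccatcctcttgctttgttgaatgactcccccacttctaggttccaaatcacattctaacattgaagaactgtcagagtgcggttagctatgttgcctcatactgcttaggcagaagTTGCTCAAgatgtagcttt
The 8 bases TTGGGCAA occurred in the windows of both Ltf, 75 to 68 bases before the start, and Ngp, 11 to 4 bases before it, and their reverse complement TTGCCCAA occurred once more in Ngp, 138 to 131 bases before the start. In Mmp8 the capitals CTTCCTC, the PU.1-type motif read on the other strand, lie 220 to 214 bases before the start.

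On chromosome 9 of mm9 the probes of Camp (109749911 to 109749970), Ngp (110324266 to 110324814, across a splice junction) and Ltf (110942873 to 110942932) span 1193 kb. Of the 22 other gene names tested within that span, 2 were lower, 2 were higher and 18 did not pass, the median log2 fold change being -0.01.

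The matrix metalloproteinases degrade extracellular matrix and are stored in secondary granules (Mmp8, neutrophil collagenase) and tertiary granules (Mmp9, gelatinase B). Mmp8 signals were -0.97, -2.35 and -2.16 in control and -3.85, -3.55 and -2.88 in Atg5f/f;Vav, and the groups did not overlap. The log2 fold change of Mmp8 was -1.61 ± 0.41 (SE, limma adjusted p = 0.0267), or 3.04-fold. Mmp9 read -3.52, -5.40 and -4.42 in control and -4.30, -6.58 and -6.42 in Atg5f/f;Vav, and its probe was well above background on only 2 control arrays and 1 Atg5f/f;Vav array. Its groups overlapped, and the log2 fold change of -1.32 ± 0.70 (SE, limma adjusted p = 0.176) had a 95% confidence interval of -2.98 to 0.35. The second Mmp9 probe was above background on 1 control array and no other, and was not tested. Mmp9 did pass without Atg5f/f;Vav array 1 (limma adjusted p = 0.0315) and with the replicate number as a block (0.0308).

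S100a8 and S100a9 encode the subunits of calprotectin, a calcium- and zinc-binding heterodimer that fills the cytosol of neutrophils. S100a8 measured 5.43, 4.31 and 5.05 in control and 4.10, 3.26 and 3.29 in Atg5f/f;Vav, a log2 fold change of -1.38 ± 0.34 (SE, limma adjusted p = 0.0252). S100a9 measured 6.56, 5.52 and 6.22 in control and 5.28, 4.53 and 4.48 in Atg5f/f;Vav, a log2 fold change of -1.34 ± 0.32 (SE, limma adjusted p = 0.0235). Both subunits ordered the arrays within control alike, with array 1 highest and array 2 lowest, and neither gene's groups overlapped, with gaps of 0.21 and 0.24. S100a9 spots had intensities of 13850 to 62000, and no spot was flagged as saturated. Their probes lie 22.9 kb apart end to end on chromosome 3 of mm9 (90473778 to 90496632), with no other gene name tested between them. Of 11 other S100a genes on the array 9 were tested, and none passed (median -0.35), but 5 of the 9 were lower when arrays were scaled on the probes detected on every array.

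Retnlg, which encodes resistin-like gamma, a small secreted protein of maturing myeloid cells, had the largest change of the 10. It measured 1.02, -0.64 and 0.24 in control and -2.03, -2.20 and -1.52 in Atg5f/f;Vav. The lowest control array stood 0.89 above the highest Atg5f/f;Vav array, the widest gap among the 10 genes. The log2 fold change was -2.12 ± 0.41 (SE, limma adjusted p = 0.0167), or 4.35-fold, with a 95% confidence interval of -3.09 to -1.16. The difference in size between Retnlg and the other genes was not tested.

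**Figure D2:**
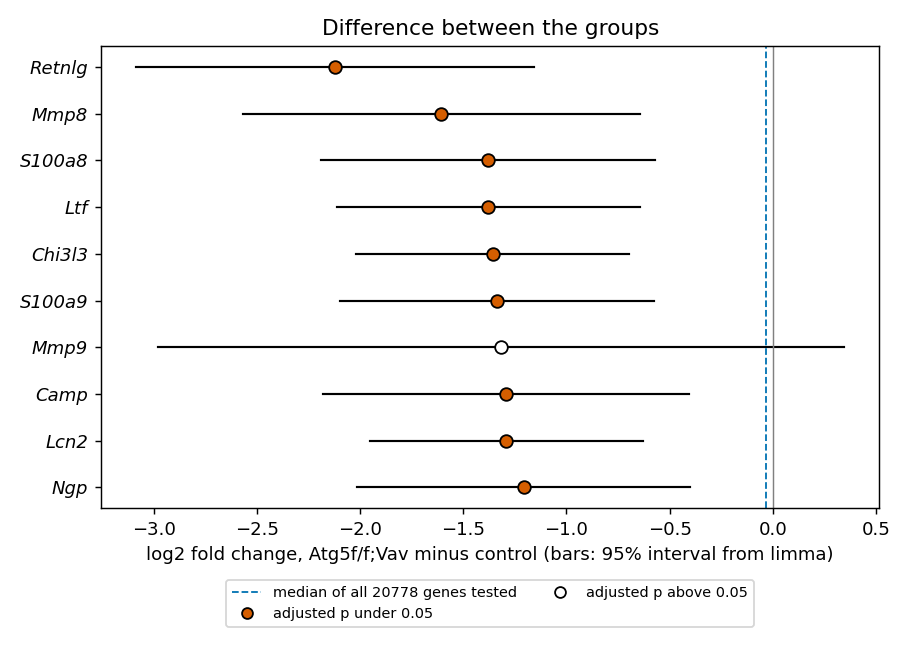
Log2 fold change of each late granule gene (x axis, Atg5f/f;Vav minus control; points, with 95% confidence intervals from limma as lines). Filled points passed an adjusted p of 0.05, the dashed line is the median of all gene names tested (-0.03), and only the interval of Mmp9 crosses 0.

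Each gene taken alone could not go below p = 0.1 in a 2-sided exact permutation test over 3 against 3 arrays, and 9 genes reached that smallest value. Mmp9 gave p = 0.3 in the same exact permutation test. The calls above use the spread that limma shares across all probes, and this exact test is too coarse to check them.

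The 10 genes also varied together among arrays of the same genotype. Control array 1 was the highest and control array 2 the lowest control array for 10 of 10 genes. Within control, the range over the 3 arrays was 0.93 (Ngp) to 1.88 (Mmp9), of the same order as the difference between the groups. In Atg5f/f;Vav, array 1 was the highest for 8 of 10 genes, and array 3 was the highest for Mmp8 and Retnlg. Centred on each gene's own mean, the average of the 10 genes was 1.34, 0.13 and 0.68 in control and -0.29, -0.96 and -0.90 in Atg5f/f;Vav. S100a8, S100a9, Ltf and Chi3l3 stayed within a root mean square difference of 0.11 to 0.14 of that average, and Mmp8, Retnlg and Mmp9 departed most (0.50, 0.49 and 0.56).

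The 5 genes whose centred profile over the 6 arrays was most like the average of the late granule genes were BC100530, Stfa1, Stfa3, Gm5483 and 8030453O22Rik, with root mean square differences of 0.10, 0.12, 0.13, 0.15 and 0.16. BC100530, Stfa1 and Stfa3 encode stefin A proteins, inhibitors of cysteine proteases, and Gm5483 is now named Cstdc4 for its cystatin domain. BC100530 read 5.63, 4.48 and 4.84 in control and 4.22, 3.36 and 3.37 in Atg5f/f;Vav. Stefin A genes are near-identical copies, so one probe may read several of them. 8030453O22Rik, annotated by RefSeq as a long non-coding RNA, was far dimmer, at -3.43, -4.28 and -3.89 against -5.05, -5.83 and -5.67.

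Of 9 genes of the earlier, primary granules, 4 were higher in Atg5f/f;Vav, none was lower and 5 did not pass, the median log2 fold change being 0.64. Of all gene names tested, 34.1% passed in either direction. Ctsg, encoding cathepsin G, measured 2.72, 2.60 and 4.46 in control and 5.04, 4.81 and 5.67 in Atg5f/f;Vav (log2 fold change 1.91 ± 0.51 SE, limma adjusted p = 0.0301). Cst7, encoding cystatin F, measured 0.17, 0.59 and 1.11 against 1.97, 1.84 and 2.06 (1.33 ± 0.23 SE, limma adjusted p = 0.0155). Mpo, encoding myeloperoxidase, measured 5.95, 6.55 and 7.19 against 7.61, 7.43 and 7.66 (1.003 ± 0.29 SE, limma adjusted p = 0.0391), and Prtn3, encoding proteinase 3, was the 4th gene to pass. Elane, the neutrophil elastase gene, singled out after its values were seen, did not pass and had overlapping groups (-0.21 ± 0.29 SE, limma adjusted p = 0.589). The count of 4 fell to 2 under quantile normalisation or without Atg5f/f;Vav array 3. It fell to 1 without the filter on dim probes or without Atg5f/f;Vav array 1, and to 0 without control array 1 or without control array 2. It rose to 6 without control array 3, and when the probes of each gene were averaged 4 were higher and 1 was lower.

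The difference between the late and the primary granule genes within an array is untouched by any scaling of that array as a whole. The mean log2 signal of the 10 late granule genes minus that of the 9 primary granule genes amounted to 0.17, -0.91 and -1.21 in control and to -2.43, -2.86 and -3.07 in Atg5f/f;Vav, or -0.65 ± 0.73 against -2.79 ± 0.33 (SD, n = 3 each). Every Atg5f/f;Vav array lay below every control array, and no test was made of this difference since the lists were chosen with results known. Only the change between arrays carries information, because the probes of the lists differ in brightness per transcript.

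**Figure D3:**
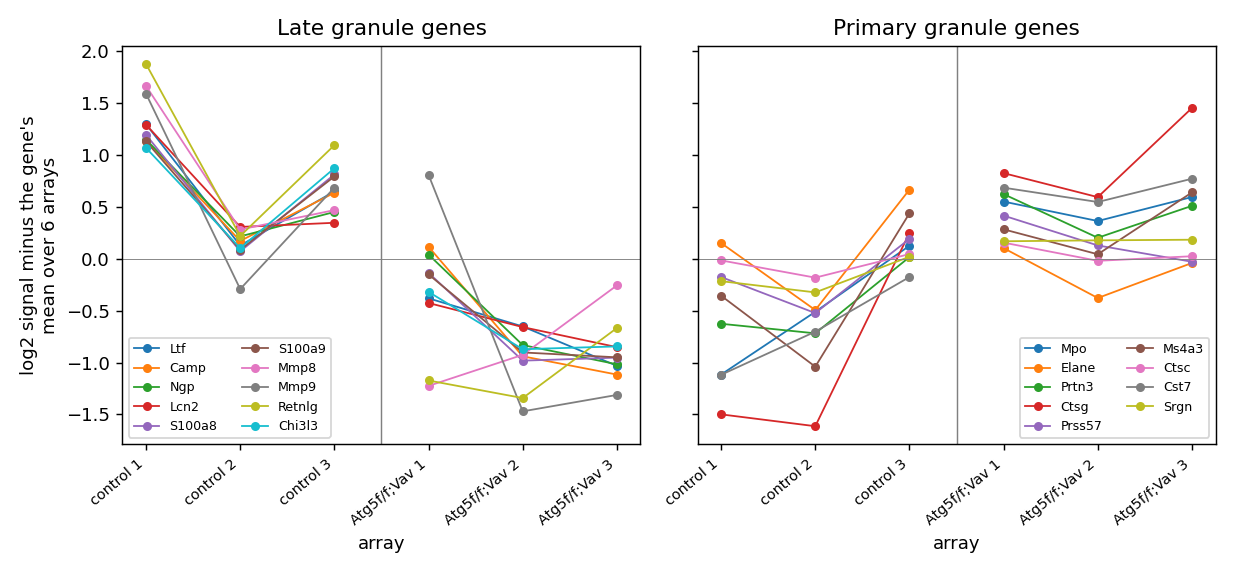
Log2 signal minus the mean of the same gene over the 6 arrays (y axis) for the 10 late granule genes (left) and the 9 primary granule genes (right), by array (x axis); lines join the points of 1 gene within a genotype and imply no order. Late granule genes averaged 1.34 on control array 1 and -0.96 on Atg5f/f;Vav array 2, while the primary granule genes were mostly above 0 on the Atg5f/f;Vav arrays.

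Other proteins of late neutrophils followed the 10 genes in part. Of 18 such genes 13 were tested, 8 were lower, none was higher and 5 did not pass (median -0.86). Over all gene names tested, 15.3% were lower and 34.1% passed in either direction. The largest falls were those of Chi3l1 (listed as Chil1, a chitinase-like protein of secondary granules; -1.70 ± 0.31 SE, limma adjusted p = 0.0163), Stfa2 (-1.57) and Stfa3 (-1.49). The 8 lower genes included the stefin A copies Stfa1, Stfa2, Stfa3 and BC100530. Since one probe may read several of these copies, the 8 may not be separate changes. The count of lower genes was 1 without control array 1 and 0 without control array 2. It was 3 without control array 3 or without Atg5f/f;Vav array 2, and 2 without the filter on dim probes. It was 9 with normexp background correction, with an intensity trend, with scaling on probes detected on every array or without Atg5f/f;Vav array 1. A single gene of this list was higher with normexp background correction, the deposited values, an intensity trend or the replicate number as a block. The same held without control array 3 and with signal above background required on all 6 arrays. Hdc, named after its values were seen, was just above the threshold (0.95, limma adjusted p = 0.0518). Haptoglobin (Hp, 0.27, limma adjusted p = 0.451) and Slpi (-0.10, limma adjusted p = 0.863), secretory proteins of the same cells and singled out after their values were seen, did not pass. Olfm4, Orm1, Ceacam10, Cd177 and Il1b were not above background on any array.

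Among 15 membrane proteins and receptors of neutrophils 13 were tested, of which 2 were lower, 3 were higher and 8 did not pass (median -0.22). That is near the 34.1% of all gene names tested that passed in either direction. None of the 13 passed without control array 1 or without control array 2. The lectin receptor gene Clec4d (log2 fold change 2.32) and Ly6g (0.71), which encodes one of the antigens bound by Gr-1 antibody, were among the higher genes. Fpr2, a receptor for formylated peptides (-0.69), and Trem1 (-0.59), a receptor that amplifies inflammation, were lower, and with the scaling on probes detected on every array 6 were lower and 3 higher. The receptor for G-CSF (Csf3r) and the chemokine receptor Cxcr2, named after their values were seen, did not pass (limma adjusted p = 0.0949 and 0.129), and Itgam, encoding Mac-1, had limma adjusted p = 0.0618.

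Among 10 transcription factors of granulopoiesis, 3 were higher, none was lower and 7 did not pass (median -0.04). That is near the 34.1% of all gene names tested that passed in either direction. None of the 10 passed without control array 1 or without control array 2. Irf8, which steers progenitors towards monocytes, rose by 1.49, Cebpa, which starts granulocyte commitment, by 0.91, and Cebpb, the C/EBP factor of emergency granulopoiesis, by 0.62 on the log2 scale (limma adjusted p = 0.0179, 0.0214 and 0.0174). Cebpe, singled out after its values were seen, was 1.002, 0.12 and 0.93 in control and 0.79, -0.16 and -0.04 in Atg5f/f;Vav, with overlapping groups (-0.48 ± 0.33 SE, limma adjusted p = 0.275).

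The list of partners and inhibitors of the 10 proteins had 3 of 8 lower and none higher (median -0.52). That is near the 34.1% of all gene names tested that passed in either direction. The 3 lower genes were Timp2 (-1.40, limma adjusted p = 0.0218) and Timp3 (-1.13, limma adjusted p = 0.0209), inhibitors of matrix metalloproteinases, and Slc22a17, a receptor for lipocalin 2 (-1.33, limma adjusted p = 0.0265). The count was 6 with the scaling on probes detected on every array, and 5 when signal above background was required on all 6 arrays. It was 0 without the filter on dim probes, without control array 1 or without control array 2. Tlr4 and Ager, receptors for the S100a8 and S100a9 proteins, were 0.12 and 0.10 and did not pass. Of 21 other Mmp genes 7 were tested, and Mmp2 (-1.88) and Mmp17 (-1.03) were lower, while 13 were not above background on any array.

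**Figure D4:**
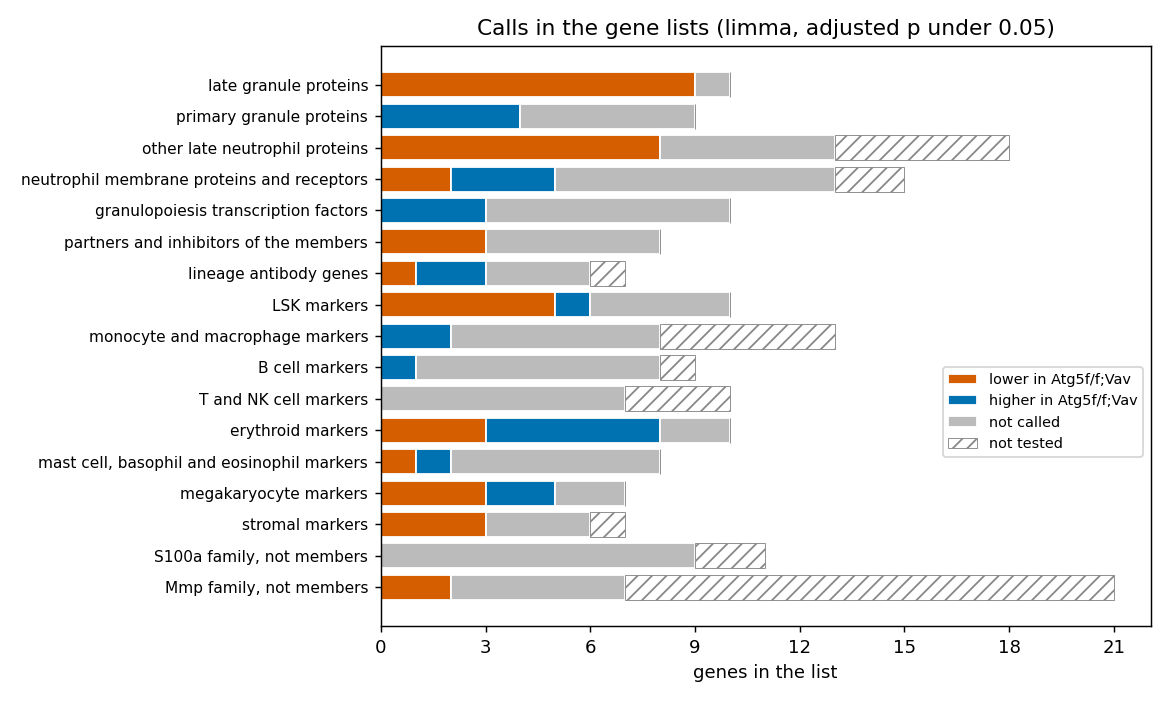
Number of genes in each list (x axis) that were lower (orange) or higher (blue) in Atg5f/f;Vav by limma at an adjusted p of 0.05, not called (grey) or not tested (hatched). The late granule list is 9 of 10 lower, and the primary granule list is 4 of 9 higher with none lower.

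Genes that mark other cells moved between the same arrays, and their part in the late granule values was not tested. Among all gene names tested, 34.1% passed in either direction. The stromal markers had a median log2 fold change of -2.47, with 3 of 6 tested lower (Col1a1, Col1a2 and Sparc) and Col3a1 at background on every array. The stromal count was 0 without control array 2, control array 3 or Atg5f/f;Vav array 2, and without the filter on dim probes. It was 1 under quantile normalisation, with the replicate number as a block or without Atg5f/f;Vav array 1 or 3. It stayed at 3 without control array 1. The summed linear signal of the stromal markers was 9.70 on control array 1, 39.9 and 29.8 on control arrays 2 and 3 and 5.39 to 8.64 on the Atg5f/f;Vav arrays. The summed signal of the late granule genes was 169.8, 81.3 and 129.4 on control arrays 1, 2 and 3 and 39.0 to 69.1 on the Atg5f/f;Vav arrays. Of the erythroid markers 5 were higher and 3 lower (sums 13.3 to 30.2 in control and 17.4 to 61.7 in Atg5f/f;Vav), and of the LSK markers 1 was higher and 5 lower (176.5 to 185.5 and 105.0 to 177.0). Without control array 1 or without control array 2, 0 erythroid markers and 1 LSK marker passed.

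Marker lists of other blood cells gave fewer calls, apart from the megakaryocyte list and the list of lineage antibody genes. Of all gene names tested, 34.1% passed in either direction. Of 8 monocyte and macrophage markers tested, 2 were higher (Cx3cr1 and Ccr2) and none lower, and the sums were 5.23 to 7.65 in control and 8.28 to 8.66 in Atg5f/f;Vav, with the macrophage genes Mrc1 and Cd163 among those at background on every array. B cell markers had 1 of 8 higher, Cd79a, with sums of 9.96 to 13.2 and 10.8 to 18.1. T and NK cell markers had none of 7 passing, sums of 8.03 to 8.11 and 6.24 to 8.53, and Cd3g, Cd8a and Ncr1 at background. Mast cell, basophil and eosinophil markers had 1 of 8 higher (Ms4a2) and 1 lower (Prss34), with sums of 6.99 to 12.7 and 7.91 to 12. Megakaryocyte markers had 2 of 7 higher and 3 lower, with sums of 7.84 to 9.38 and 7.04 to 7.23. The list of lineage antibody genes had 2 of 6 higher, Ly6g and Ly6c1, 1 lower, Ptprc, which encodes B220 and CD45, and Cd8a at background. The 6 include Itgam, although Mac-1 antibody was not used at this age. Ptprc passed only at the threshold (-0.34, limma adjusted p = 0.05), and with the deposited values 0 were lower.

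The calls in the lists rest on the control arrays too, since over all probes 11024 passed with all arrays, 330 without control array 1 and 251 without control array 2. Leaving out single arrays changed the number of late granule genes that passed but not their direction. All 10 genes were lower whichever array was left out, and 0 passed without control array 1, 2 without control array 2, 5 without control array 3, and 9, 4 and 6 without Atg5f/f;Vav arrays 1, 2 and 3. Over all probes, 8344 passed without control array 3, and 10304, 7722 and 9701 without Atg5f/f;Vav arrays 1, 2 and 3. Without control array 1 the limma adjusted p of the 9 genes that had passed was 0.0628 to 0.114, and 9 of 10 genes had an unadjusted p under 0.05. Retnlg and Chi3l3 passed in 5 of the 6 fits, and Camp, Ngp and S100a8 in 1 of the 6. The 9 genes that passed without Atg5f/f;Vav array 1 included Mmp9 (limma adjusted p = 0.0315) and not Mmp8 (0.0567).

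**Figure D5:**
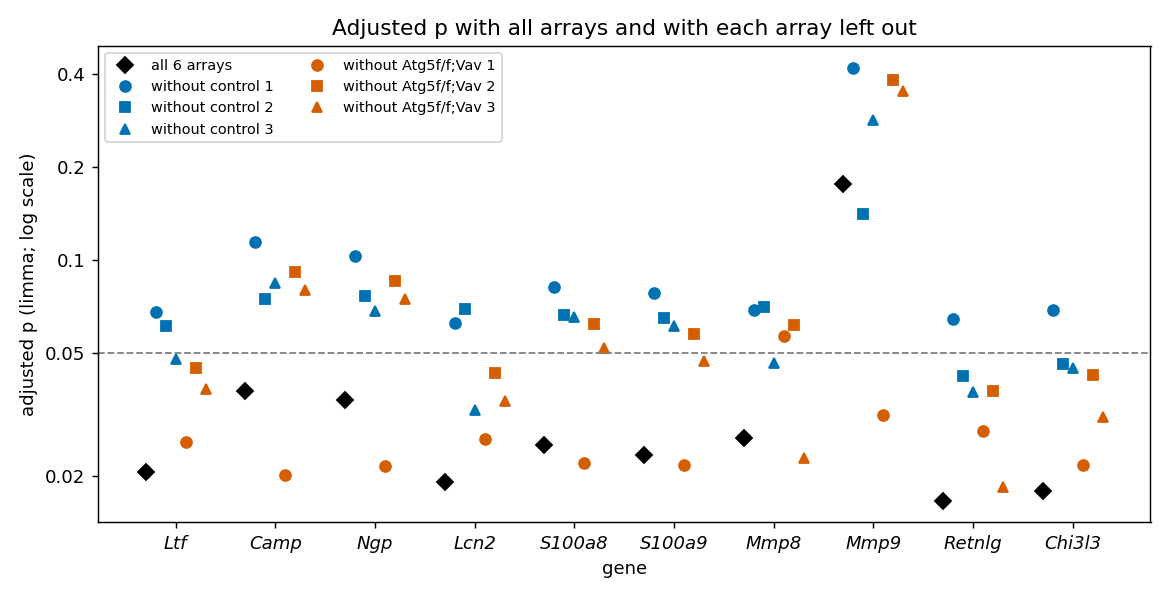
Limma adjusted p of each late granule gene (y axis, log scale; dashed line at 0.05) with all 6 arrays (black) and with 1 control (blue) or 1 Atg5f/f;Vav array (orange) left out. All blue circles, the fits without control array 1, lie above 0.05.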

How the data were processed

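Total RNA of sorted LSK cells was labelled with Cy3 and hybridised to 1-colour Agilent arrays of 60-mer probes placed on mm9. The deposited scanner files hold 1 intensity per spot, corrected for background by Agilent Feature Extraction 12.0.3.1 and not scaled across arrays. A deposited table holds the authors' normalised signal, which differs from that intensity by 1 factor per array. Here log2 intensity was taken minus the 75th percentile of each array over 59305 spots that are not controls. Spots marked as outliers (64 to 81 per array) were left out. A probe was tested if it was well above background on 3 or more arrays, which 32074 probes were. The test was 2-sided, by lmFit and eBayes of limma (3.58.1; R 4.3.3), with Benjamini-Hochberg adjustment and a threshold of 0.05, and was checked on simulated data. Precision is limited by the number of arrays, which give no read depth.

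A gene was represented by its brightest probe, and gene names are those of the files. The text names all 10 genes with every probe, up to 3 genes each way per list, and the 5 genes nearest in profile, besides those marked as named later. Some listed genes are counted but not reported by name here. The genes and lists were chosen with earlier results of these data known, and the S100a and Mmp families were added after the files were seen. Alternatives were another background correction, normalisation, filter, variance model and test, a replicate block, and leaving out arrays. Promoter windows are from RefSeq tables (GRCm38.p6). The plots were drawn with matplotlib 3.10.9.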

Additional observations from a re-analysis of the deposited data

How the results depend on the processing

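The late granule genes were lower under every alternative tried, 10 of 10 wherever all were tested. Requiring signal above background on all 6 arrays left out Mmp9, and 9 of 9 passed. Among 10 genes, 9 passed with normexp background correction, with scaling on probes detected on every array, with the deposited values, with outlier spots kept, with an intensity trend and with the mean of all probes. Quantile normalisation left 7, since Ngp (limma adjusted p = 0.0516) and Mmp8 (0.0562) were lost. Without the filter on dim probes 3 passed (Lcn2, Retnlg and Chi3l3), and over all probes 4538 of 56605 passed in place of 11024 of 32074. After Benjamini-Hochberg adjustment the methods' t-test passed 0 late granule genes and 0 probes, against 8 genes and 13541 probes at an unadjusted p under 0.05. Leaving out 1 array gave 0 to 9 late granule genes, 251 to 10304 probes and a median of -1.65 to -1.09. With control array 1 alone, 0 genes and 0 probes passed, 9 genes had limma adjusted p of 0.118 to 0.198 and the median was -1.91. This alternative was added after seeing the data. Control array 1 is the highest control array for all 10 genes, so the larger fall follows from that choice, and the lone control was assumed to vary like the other group. Whether the replicate number pairs the samples cannot be settled with 3 arrays per group. Deviations of same-numbered arrays correlated at -0.07, 0.19 and 0.11, and those of differently numbered arrays at -0.30 to 0.13. These correlations are not independent, because they share the same few arrays. With the replicate block 10173 probes and 9 late granule genes passed, Mmp9 in (0.0308) and Mmp8 out (0.0612). Mmp9 was above background on 3 of 6 arrays.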
